A study of Mus musculus with 12 samples.

Results

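The collagen chain genes of the mouse aorta were taken as all genes whose symbol in the platform annotation has the form of a collagen chain (Col, a type number, a, a chain number), and this gave 44 of the 22180 genes measured. Aortic RNA came from males of DBA/2J (DBA below), C57BL/6 (B6) and, as the strain with both segments of the aorta, 129S6/SvEvTac (129), all aged 2 to 5 months and fed chow. The groups were DBA arch, B6 arch, 129 arch and 129 root, the root being the segment next to the heart, with 3 arrays in each. An array held RNA pooled from 5 mice in the arch groups (4 for B6 arch replicate 1) and from 6 mice in the root group. The growth protocol calls all mice wild type, while the series text writes apoe after the strain names in the same phrase. The paper describes the mice of its aortic arrays as wild type. It gives their age as 3 to 5 months, where the sample labels give 2 to 5. No root of DBA or B6 mice was analysed here, so a difference between root and arch is known for 129 alone. The comparisons share groups: 129 arch enters 3 of the 4 and each other arch group 2.

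Collagens are secreted or membrane proteins in which 3 chains wind into a triple helix, and most chains work only with specific partners. The fibrillar collagens, such as types I, III, V and XI, build the load-bearing fibrils of the vessel wall. FACIT collagens sit on the surface of fibrils, type IV forms the network of basement membranes, type VI forms beaded filaments around cells, and the short chain collagen type VIII forms a lattice in the subendothelium and around smooth muscle cells. The 44 genes comprised 11 fibrillar, 6 type IV, 9 FACIT, 7 beaded filament, 3 short chain, 2 multiplexin (basement membrane zone collagens with interrupted helices), 4 transmembrane and 2 other chains.

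Values are log2 signals of 1 probe set per gene, and differences were tested with limma over all 22180 genes with Benjamini-Hochberg adjustment and a threshold of 0.05. Of the 44 genes, 24 had a mean over the 12 arrays above the median of all genes (5.63) and 20 lay below it. The data hold no detection calls, so it cannot be said whether the 20 dimmer genes were expressed. The folds of low-signal genes may be understated. The smooth muscle markers Acta2, Myh11, Tagln, Cnn1, Smtn and Lmod1 were bright in every group (summed linear signal 33857 to 38585 over the 12 arrays), and no member of that list passed the test in any of the 4 comparisons. The brightest, Acta2, was at 13.23 to 13.34, near the highest signal measured (13.6). A difference in genes that bright could go unseen, so equal smooth muscle content is not shown. A pair of arch arrays stood apart. B6 arch replicate 1 had a summed hepatocyte marker signal of 9554, against 98.1 to 227 over all DBA and 129 arch arrays, and DBA arch replicate 2 had summed lung epithelial and cardiomyocyte marker signals of 5937 and 31239, against highest values of 141 and 2501 in 129 arch. In bulk tissue, a difference in the number of cells of a type cannot be told apart from a difference in RNA per cell.

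The comparison of root and arch asked which collagen chains differ along the aorta of a single strain. In 129 mice, 9 of the 44 collagen genes were higher in the root, among 8.36% of all genes that were called higher, and 0 of 44 were lower, among 7.45% of all genes that were called lower. At an unadjusted p under 0.05, 15 of the 44 collagen genes and 6492 of all 22180 genes differed. The 9 were Col6a5 of the beaded filament collagens, Col8a1 and Col8a2 of type VIII, the fibrillar chain Col11a1, the transmembrane chain Col23a1, the FACIT chains Col12a1 and Col16a1, and Col4a3 and Col4a4 of type IV. Of these, Col6a5, Col8a2 and Col11a1 had a mean over the 12 arrays below the median of all genes, and the other 6 lay above it. On 14 of the 44 genes all 3 root arrays lay above all 3 arch arrays, which was so for 19.4% of all genes. On 1 of the 44, Col27a1, all root arrays lay below all arch arrays, which was so for 16.4% of all genes. The median log2 difference of the 44 genes was 0.14, beside 0.00 over all genes. None of the chains of types I and III was among the genes called.

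**Figure D1:**
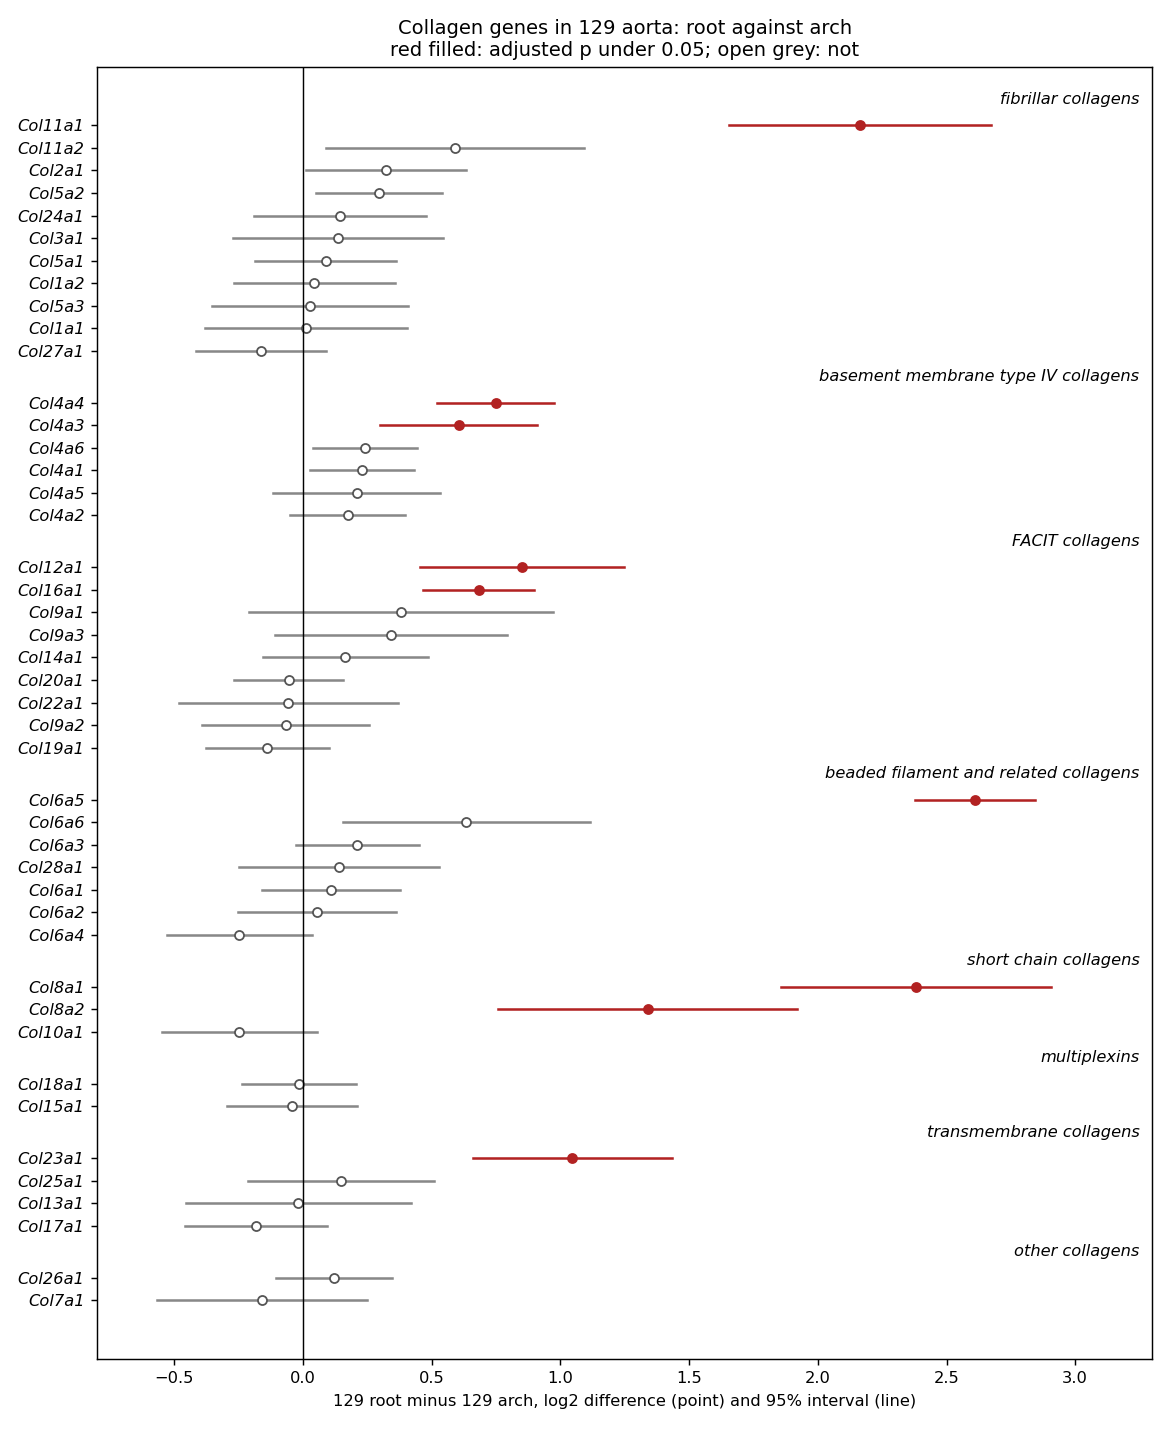
Log2 difference between 129 root and 129 arch (horizontal axis, root minus arch, with the 95% interval as a line) for the 44 collagen genes, grouped by structural class. Red filled points are the 9 genes with an adjusted p under 0.05, all to the right of 0, from 0.60 for Col4a3 to 2.61 for Col6a5; open grey points are the other 35 genes.

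Col6a5 encodes a chain of type VI collagen that can take the place of the Col6a3 chain beside those of Col6a1 and Col6a2. Its log2 signal was 4.32, 4.50 and 4.24 on the 3 arch arrays and 6.96, 7.02 and 6.91 on the 3 root arrays of 129 mice. The root arrays lay close together and far above every arch array. The mean rose from 4.35 ± 0.13 in the arch to 6.96 ± 0.06 in the root (SD, n = 3), a 6.11-fold difference (95% interval 5.20 to 7.19, limma adjusted p = 2.3e-05). In DBA arch and B6 arch the gene had means of 4.52 ± 0.21 and 4.09 ± 0.45 (SD, n = 3), close to 129 arch, and no arch array of any strain exceeded 4.75.

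Col6a5 lies on Chr 9 between Col6a4 and Col6a6, with no other protein-coding gene between neighbours in assembly GRCm38.p6, and all 3 encode chains of the same kind. Col6a6 had log2 signals of 7.17, 6.82 and 6.77 in the arch and 7.32, 7.98 and 7.36 in the root. Its arrays did not overlap, but the difference of 0.63 ± 0.20 (SE) had an adjusted p of 0.0836. Col6a4 was dim throughout, with means of 3.28 in the arch and 3.03 in the root and a 95% interval of -0.53 to 0.03 for the log2 difference. The 3 neighbours therefore had different values in the same arrays, and the differences between their changes were not tested. The chains that build the common form of type VI collagen had smaller differences: Col6a1 was at 0.11 (95% interval -0.16 to 0.38), Col6a2 at 0.06 (-0.25 to 0.36) and Col6a3 at 0.21 (-0.03 to 0.45). None of these passed the test, and the arrays did not overlap on Col6a3 alone.

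Type VIII collagen is built from the chains of Col8a1 and Col8a2, and both were higher in the root. Because these 2 genes code for partner chains that were both higher, the 250 bases before the RefSeq start of each are shown, 5′ to 3′ on the strand of the gene (assembly GRCm38.p6, Col8a1 at chr16:57754738-57754987 on the minus strand, Col8a2 at chr4:126286544-126286793 on the plus strand). Capitals mark the letters GGGCGG, the core of a GC box, on either strand.
Col8a1: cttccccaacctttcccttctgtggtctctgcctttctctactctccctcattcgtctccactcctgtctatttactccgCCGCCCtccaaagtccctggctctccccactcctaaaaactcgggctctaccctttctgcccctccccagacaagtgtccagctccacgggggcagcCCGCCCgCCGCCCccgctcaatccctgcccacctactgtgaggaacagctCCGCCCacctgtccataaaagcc
Col8a2: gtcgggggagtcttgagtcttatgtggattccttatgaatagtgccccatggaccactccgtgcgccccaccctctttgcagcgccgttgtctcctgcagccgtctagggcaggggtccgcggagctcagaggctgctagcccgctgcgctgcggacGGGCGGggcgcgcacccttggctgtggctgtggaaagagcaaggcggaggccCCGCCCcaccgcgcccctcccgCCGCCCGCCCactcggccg
Each window held 4 such matches, of which 2 in Col8a2 overlapped each other. Of all 32851 promoter windows of this length in the table, 32.7% held at least 1 match, as did 21 of the 35 collagen genes found in it. Neither window held CCAAT (33.8% of all windows) or TATAAA (12.4%) on either strand. The Col8a1 window alone held CAGAC, the core of a Smad element (42.2% of all windows), and CANNTG, an E box (66.2%). GC content was 60.8% for Col8a1 and 70.0% for Col8a2. A match describes the letters and is not a bound site.

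Col8a1 had log2 signals of 6.58, 7.37 and 7.23 in 129 arch and 9.19, 9.50 and 9.62 in 129 root. Every root array was above every arch array of any strain, where the highest was 8.13. The mean rose from 7.06 ± 0.42 to 9.44 ± 0.22 (SD, n = 3), which was 5.21-fold (95% interval 3.62 to 7.50, adjusted p = 6.4e-04). Its partner Col8a2 was dimmer, with 3.71, 3.91 and 4.28 in the arch and 5.31, 4.85 and 5.75 in the root. These arrays did not overlap either, and the 2.53-fold difference had a 95% interval of 1.69 to 3.79 (adjusted p = 0.0112). Col10a1, the third short chain gene and a marker of hypertrophic cartilage, was not higher in the root (log2 difference -0.25, 95% interval -0.55 to 0.05).

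Col11a1, a minor fibrillar chain that helps to nucleate fibrils and limits their diameter, had log2 signals of 3.65, 3.27 and 3.80 in the arch and 5.81, 5.34 and 6.07 in the root. The lowest root array was above the highest arch array of any strain (4.28). The root mean was 4.48-fold that of the arch (95% interval 3.15 to 6.37, adjusted p = 8.5e-04). Its cartilage partners in type XI collagen are Col11a2 and a chain made by Col2a1. Col11a2 had a log2 difference of 0.59 ± 0.21 (SE) and Col2a1 one of 0.32 ± 0.13, with adjusted p of 0.114 and 0.159, and the arrays of both groups overlapped in each. The type IX genes Col9a1, Col9a2 and Col9a3, whose FACIT trimer coats cartilage fibrils, were at 0.38 (95% interval -0.21 to 0.97), -0.07 (-0.39 to 0.26) and 0.34 (-0.11 to 0.79). Of the cartilage collagens named here, Col11a1 was therefore alone in passing the test. Without root replicate 1 Col9a1 passed as well (adjusted p = 0.0363, against up to 0.700 in its other alternatives).

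Beside these chains, 5 of 8 cartilage markers were higher in the root: Acan, the proteoglycan aggrecan, Sox9, a transcription factor of chondrocytes, Hapln1, a link protein, Chad, chondroadherin, and Comp, a pentameric protein that binds collagen fibrils. Their log2 differences ran from 1.14 for Acan to 3.41 for Chad. The summed linear signal of the 8 markers was 1034 to 1152 on the 129 arch arrays and 6968 to 8284 on the root arrays. Matn1 and Matn3, cartilage matrilins, were dim and at -0.12 and -0.19, and Cnmd was at 0.42 without passing. Log2 signals have no true 0, so a low signal of a marker does not show that it was absent. The part of cartilage-like cells in the collagen differences was not tested.

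The major fibrillar chains had near equal values in root and arch. Col1a2, the brightest fibrillar probe set, had 11.85, 11.47 and 11.77 in the arch and 11.57, 11.84 and 11.81 in the root. Its log2 difference was 0.04 (95% interval -0.27 to 0.36), which allows folds between 0.829 and 1.28. Col1a1, the other chain of type I collagen, was at 0.01 (-0.38 to 0.40), and Col3a1, the chain of type III, at 0.13 (-0.27 to 0.54). Col5a1, Col5a2 and Col5a3, the chains of type V collagen that regulate fibril assembly, were at 0.09, 0.30 and 0.03. On Col5a2 the arrays did not overlap, with an adjusted p of 0.110. A second probe set of Col1a2 gave -0.24, and neither it nor the second ones of Col5a1 and Col6a1 passed the test in any of the 4 comparisons.

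Of the basement membrane chains, Col4a3 and Col4a4 were called. The 6 type IV genes lie in 3 pairs of neighbours: Col4a1 with Col4a2 on Chr 8, Col4a3 with Col4a4 on Chr 1 and Col4a5 with Col4a6 on Chr X. The first pair makes the network found in nearly all basement membranes, and Col4a3 and Col4a4 join Col4a5 in a network known from the kidney glomerulus. Col4a4 had log2 signals of 5.37, 5.37 and 5.49 in the arch and 6.04, 6.27 and 6.16 in the root, a 1.68-fold difference (95% interval 1.43 to 1.97, adjusted p = 0.00252). Col4a3 had 6.47, 6.44 and 6.33 in the arch and 6.76, 7.10 and 7.19 in the root, a 1.52-fold difference (1.23 to 1.88, adjusted p = 0.0207). Neither overlapped between the 129 groups. Their partner Col4a5 was at 0.21 (95% interval -0.12 to 0.53) on the log2 scale and did not pass. Col4a1, Col4a2 and Col4a6 were at 0.23, 0.17 and 0.24 and did not pass either, although the arrays of Col4a1 and Col4a6 did not overlap. The 6 genes were all on the higher side in the root, with a median of 0.23. The call of Col4a3 was lost without arch replicate 2, arch replicate 3, root replicate 2 or root replicate 3 (adjusted p 0.00979 to 0.0728 over the 6 fits without 1 array). With all 12 arrays in a single model both calls were lost (adjusted p = 0.154 for Col4a3 and 0.132 for Col4a4, the highest of their alternatives, whose lowest were 0.00559 and 3.8e-04).

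Among FACIT collagens, Col12a1, a long chain that bridges fibrils in tissues under tension, had log2 signals of 6.98, 7.00 and 7.55 in the arch and 7.94, 7.99 and 8.16 in the root. It was 1.80-fold higher in the root (95% interval 1.37 to 2.37, adjusted p = 0.0148). Of its 129 arch arrays, replicate 3 lay closest to the root. Without root replicate 3 the call was lost (adjusted p = 0.0594, in a range of 0.00171 to 0.0782 over its alternatives). Col16a1, a FACIT chain of fibril and microfibril networks, had 5.86, 5.79 and 5.95 in the arch and 6.47, 6.53 and 6.63 in the root, a narrow but clear step of 1.61-fold (1.38 to 1.86, adjusted p = 0.00292). Col14a1, the brightest FACIT probe set, did not pass (log2 difference 0.16, 95% interval -0.15 to 0.48).

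Col23a1, a transmembrane collagen that can be shed from the cell surface, had 6.74, 6.62 and 6.18 in 129 arch and 7.39, 7.70 and 7.58 in 129 root. The groups did not overlap, and the root was 2.07-fold higher (95% interval 1.58 to 2.70, adjusted p = 0.00586). The other transmembrane chains, Col13a1, Col17a1 and Col25a1, were between -0.18 and 0.15 on the log2 scale, and none passed. The multiplexins Col15a1 and Col18a1, the second of which releases endostatin, were at -0.04 (95% interval -0.29 to 0.21) and -0.02 (-0.24 to 0.21). Col7a1, the chain of anchoring fibrils, and Col26a1 were at -0.16 and 0.12.

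**Figure D2:**
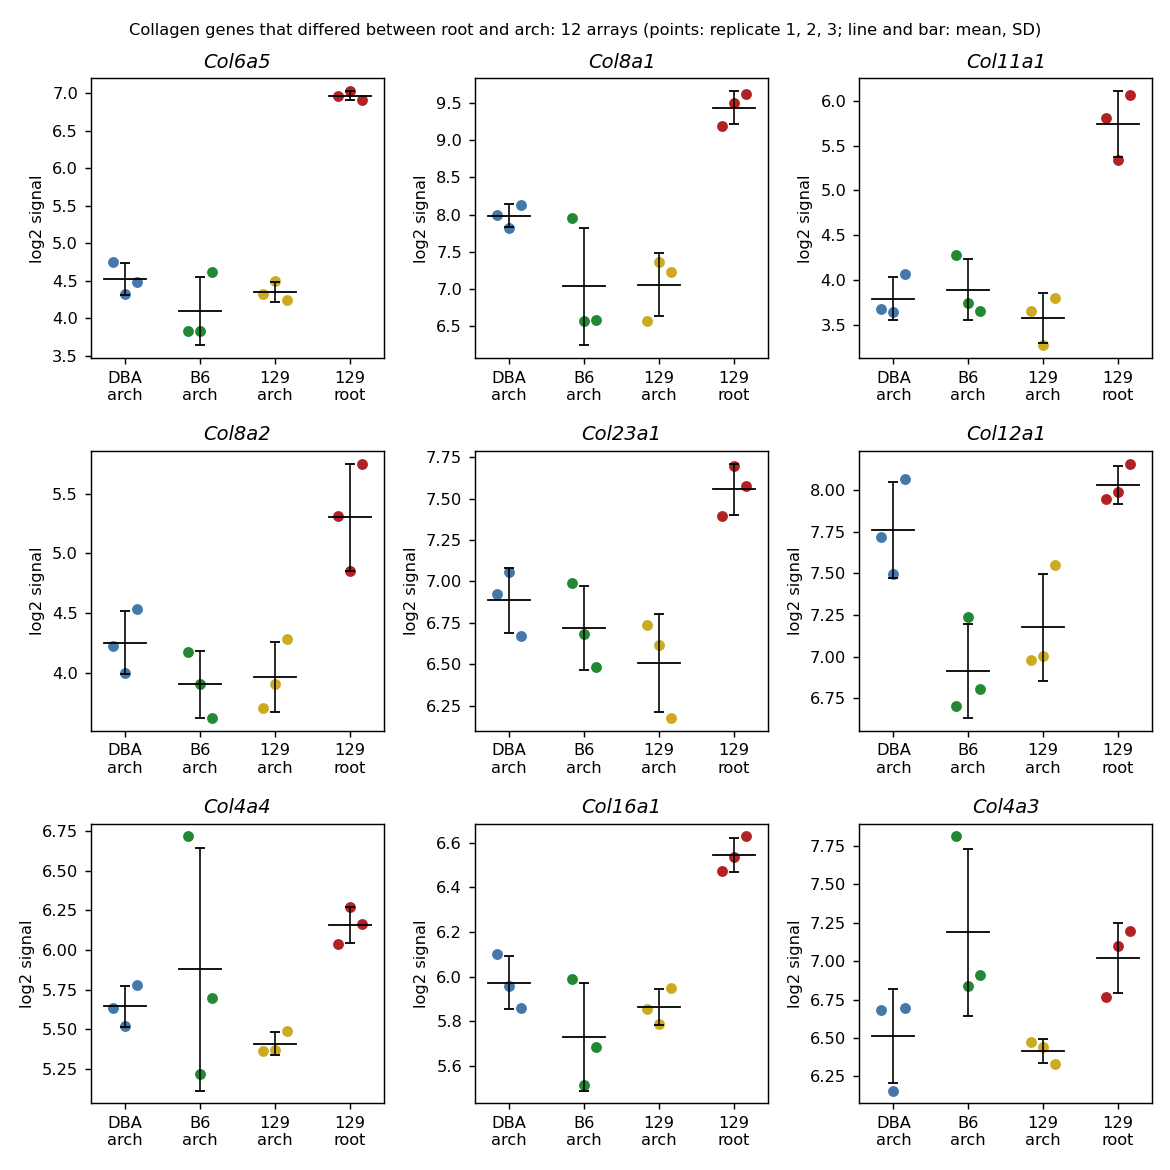
Log2 signal (vertical axis, its own scale in each panel) of the 9 collagen genes called between root and arch, on all 12 arrays by group; points are replicates 1 to 3, the line and bar give the mean and SD. Root arrays (red) lie above the 129 arch arrays in every panel; B6 arch replicate 1 lies above the root arrays for Col4a3 (7.81) and Col4a4 (6.72).

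Cell type markers that moved with the root, beside the 9 genes called, were as follows. Of the cardiomyocyte markers 6 of 8 were higher in the root (summed linear signal 15917 to 23345, against 1439 to 2501 in 129 arch), as were 6 of 6 mesothelial markers (1856 to 2245, against 447 to 643), 5 of 6 macrophage markers (2944 to 3536, against 1017 to 1768) and 3 of 6 fibroblast markers (Pdgfra, Dpt and Lum, summed over the list 18395 to 20528, against 13425 to 13825). The fibroblast markers Pi16 and Clec3b were at -0.31 and -0.42 on the log2 scale and did not pass, with all root arrays of Pi16 below the arch arrays. Of 6 endothelial markers, Emcn was higher (1.83) and Kdr lower (-0.84), and the median log2 difference of the list was 0.05. Cdh5, Pecam1, Tie1 and Vwf were at -0.28, -0.03, 0.13 and 0.31 and did not pass. The summed endothelial signal was 7054 to 7514 against 6129 to 6598, with Emcn alone called higher. The skeletal muscle markers Acta1 and Ckm were higher too (2 of 6, summed signal 1116 to 3383 against 208 to 325). The rest of that list, Myh1, Myh4, Tnnt3 and Pvalb, were at -0.06, -0.23, 0.03 and -0.07 and did not pass. The median of the list was -0.02. All 6 adipocyte markers (1781 to 2894, against 15163 to 18011) and the 5 measured T cell and thymocyte markers (213 to 285, against 972 to 1929) were lower. Also called lower was Mbp (-0.99), 1 of 3 measured Schwann cell markers. The same held for Alb (-1.75), 1 of 6 hepatocyte markers, and Scgb1a1 (-1.81), 1 of 6 lung epithelial markers. The part of these cells in the collagen differences was not tested.

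The genes that handle collagen after translation were compared in the same arrays, as lists. Beside each list stand the 8.36% of all genes called higher in the root and the 7.45% called lower. Of 16 measured genes of folding and modification, 3 were higher in the root. Colgalt2, a galactosyltransferase that acts on hydroxylysine of collagen, had log2 signals of 5.54, 5.42 and 5.28 in the arch and 7.59, 7.57 and 7.67 in the root, a 4.59-fold difference (adjusted p = 4.1e-05). P4ha3, a catalytic subunit of prolyl 4-hydroxylase, was at 6.19, 5.80 and 5.82 in the arch and 7.98, 8.19 and 8.24 in the root, 4.58-fold higher (adjusted p = 1.4e-04). The related enzymes did not pass: Colgalt1 was at -0.14 on the log2 scale, the other catalytic subunits P4ha1 and P4ha2 at 0.19 each, and their partner subunit P4hb at 0.05. P3h2, a prolyl 3-hydroxylase, was at 0.44 ± 0.11 (SE, adjusted p = 0.0417). Its call was lost without arch replicate 1, arch replicate 3, root replicate 1 or root replicate 3. Serpinh1, the chaperone of procollagen, was at 0.03 and did not pass.

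Of 11 measured genes of procollagen processing and cross-linking, 2 were higher in the root. Tll1, a protease of the family that removes the carboxyl propeptide, had a log2 difference of 1.05 ± 0.18 (SE, adjusted p = 0.00777). Adamts3, which removes the amino propeptide, was at 0.50 ± 0.12 (adjusted p = 0.0332), but passed in only 1 of the 6 fits without 1 array, that without arch replicate 3. Lox, the lysyl oxidase that starts cross-linking, and Loxl1 were at -0.14 and -0.05 and did not pass.

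Among fibril-associated proteoglycans and glycoproteins, 6 of 12 were higher in the root and 0 lower, with a median log2 difference of 0.40. Kera, keratocan, a small leucine-rich proteoglycan, had log2 signals of 4.30, 4.52 and 4.44 in the arch and 5.90, 7.28 and 7.10 in the root. Its root replicate 1 lay well below the other root arrays, yet above every 129 arch array, and the mean difference was 5.07-fold (adjusted p = 0.00426). Comp was 4.22-fold higher (adjusted p = 3.7e-04). Lum, lumican, and Fmod, fibromodulin, which bind fibrils and limit their width, were 2.89-fold and 2.80-fold higher (adjusted p = 3.3e-04 and 9.5e-04). Vcan, the large proteoglycan versican, and Aspn, asporin, were the other genes called, and the call of Aspn was lost without root replicate 2 or root replicate 3. Bgn, biglycan, at 0.04, and Dcn, decorin, at 0.31 ± 0.09 (SE, adjusted p = 0.0555), did not pass.

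Of 10 measured collagen receptors, 3 were higher and 2 lower in the root. Itga11, the integrin subunit of fibroblasts that binds fibrillar collagen, was 2.28-fold higher (adjusted p = 8.1e-04), and Mrc2, an endocytic receptor for collagen fragments, was also called. Lair1, an inhibitory receptor of leukocytes, was 3.67-fold higher (adjusted p = 0.00182), beside the rise of the macrophage markers given above. Adgrg1, an adhesion receptor that binds type III collagen, fell by 1.10 on the log2 scale (adjusted p = 9.3e-04). Gp6, the collagen receptor of platelets, was at -1.96 ± 0.50 (SE, adjusted p = 0.0386), and passed in only 1 of the 6 fits without 1 array, that without arch replicate 1.

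**Figure D3:**
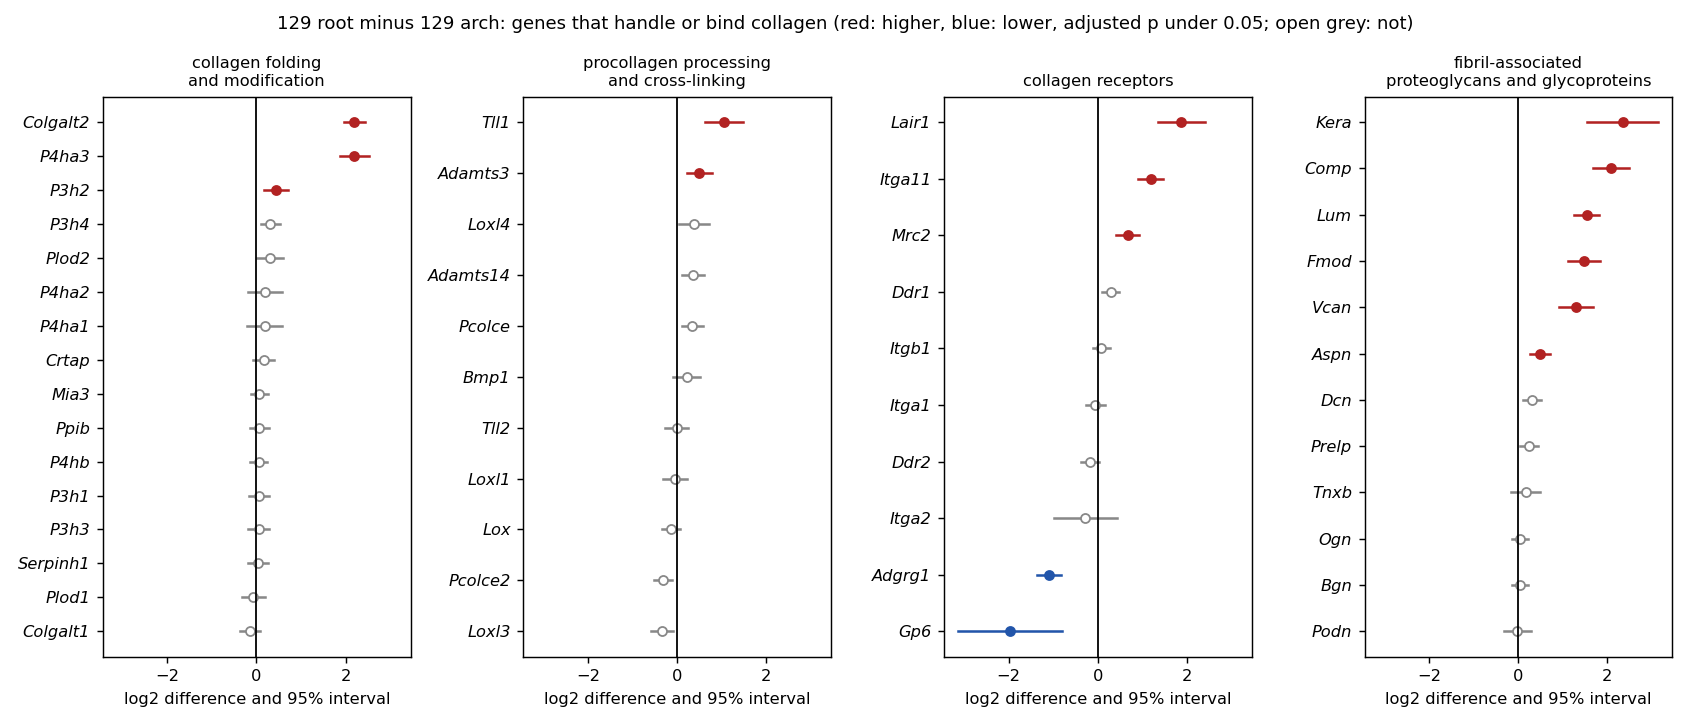
Log2 difference between 129 root and 129 arch (horizontal axis, with the 95% interval as a line) for genes that fold, process, bind or sense collagen, in 4 lists. Red points are called higher and blue points lower at an adjusted p under 0.05, open grey points are not called; 3 of 16 folding genes, 2 of 11 processing genes, 3 of 10 receptors and 6 of 12 fibril-associated genes are red, and 2 receptors are blue.

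The comparisons of the 3 strains asked whether collagen expression in the arch differed with genetic background. No plaque measurement of these mice was used here. None of the 44 collagen genes passed the test between strains: 0 between DBA and 129 arch, where 1.44% of all genes were called in either direction, 0 between B6 and 129 arch (1.45%) and 0 between DBA and B6 arch (1.55%). At an unadjusted p under 0.05 there were 6 collagen genes between DBA and 129, 14 between B6 and 129 and 13 between DBA and B6, of 2654, 2673 and 2771 genes in all. None of the genes of the 4 collagen handling lists passed either. A p that misses the threshold does not show that the strains were alike, and the intervals are given with the values.

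Many collagen genes had their highest arch value on B6 arch replicate 1. Of the 24 brighter collagen genes, 18 were highest on this array among the 9 arch arrays, as were 23.4% of all genes above the median. The median of the 24 genes on it lay 0.61 above their mean of the 9 arch arrays, against 0.02 for all genes above the median. On DBA arch replicate 2 and 129 arch replicate 2 the same median was lower, at -0.22 and -0.28. B6 arch replicate 1 was the pool of 4 mice and the array with hepatocyte transcripts. Its summed adipocyte signal of 4413 was the lowest of the 9 arch arrays. Its summed fibroblast and macrophage signals of 17304 and 2664 were the highest of them. The highest values were 14165 and 2281 in DBA arch and 13825 and 1768 in 129 arch. The part of the composition of this pool in its collagen values was not tested. Its cartilage marker sum of 2184 was the highest of the arch arrays too, and on it Col2a1, the main collagen of cartilage, was at 6.64, against 5.74 and 5.30 on B6 arch replicates 2 and 3. Markers of other cell types also differed between the strains. The cartilage marker Acan was at 8.88, 8.21 and 8.63 in B6, 7.19, 6.93 and 6.86 in DBA and 5.99, 6.00 and 5.69 in 129 arch, and was called in all 3 comparisons (adjusted p = 2.4e-04 for B6 against 129, 0.0229 for DBA against 129 and 0.00384 for DBA against B6). The fibroblast marker Clec3b was 1.45 higher in B6 than in 129 arch on the log2 scale (adjusted p = 0.0125). Acan alone of 8 cartilage markers was called, and Clec3b alone of 6 fibroblast markers. Of 8 cardiomyocyte markers Actc1 alone was called, higher in DBA (8.79, 10.97 and 9.16) than in B6 arch (6.86, 6.81 and 6.45). On 6 of these 8 all B6 arrays lay below all 129 arch arrays, which was so for 9.42% of all genes. The median of the 8 between B6 and 129 was -1.03, and none was called there. Chad, another cartilage marker, was at -1.07 between DBA and 129, with all DBA arrays lower. On all 5 T cell and thymocyte markers the DBA arrays lay below the 129 arch arrays (median -1.64). All 6 macrophage markers had positive differences from 129, with medians of 0.40 in DBA and 0.58 in B6. None of these T cell, thymocyte and macrophage markers passed, nor did Chad. The part of these cells in the collagen values was not tested.

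**Figure D4:**
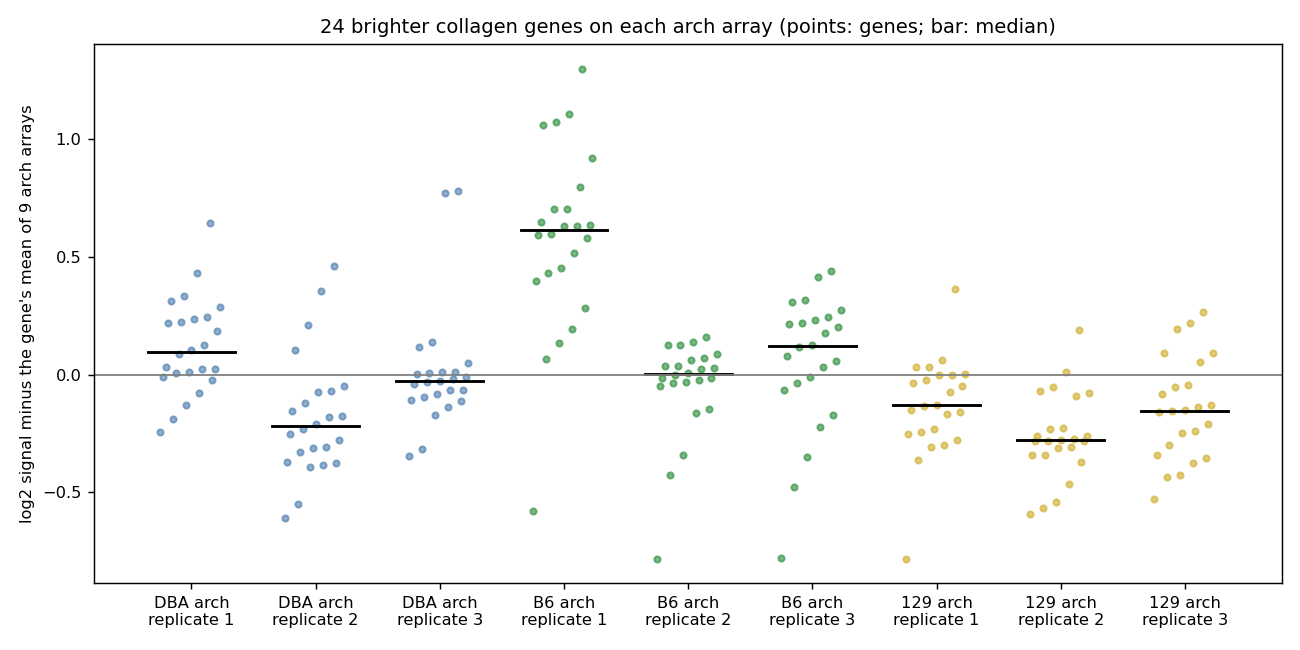
Log2 signal minus the mean of the same gene over the 9 arch arrays (vertical axis) for the 24 collagen genes above the median of all genes, on each arch array; points are genes and the bar is their median. B6 arch replicate 1 has a median of 0.61, and the other 8 arrays have medians between -0.28 and 0.12.

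In B6 arch, 12 of the 44 genes lay above 129 arch on all 3 arrays against 3, which was so for 8.09% of all genes. The 12 were 5 of the 6 type IV genes (Col4a4 overlapped), Col3a1, Col5a2, Col6a1, Col6a2, Col6a3, Col2a1 and Col15a1. The FACIT chain Col20a1 alone lay below 129 arch on all arrays, which was so for 9.42% of all genes. Collagen genes named here or for the root that were neither called, nor the brightest of a class, nor partners of a called chain were chosen after their values were seen. The median log2 difference of the 24 brighter genes was 0.42, and 0.21 without B6 arch replicate 1; over all 44 genes it was 0.19 with all arrays. Of the 44, 14 had an unadjusted p under 0.05 with all arrays (12.1% of all genes) and 7 without that array (11.5% of all genes). Col15a1 came closest to the threshold. It had log2 signals of 10.11, 9.54 and 9.64 in B6, 9.74, 9.34 and 9.42 in DBA and 9.05, 8.87 and 8.99 in 129 arch. The 129 arrays were thus the lowest 3 of the 9. The B6 difference was 0.80 ± 0.17 (SE, 95% interval 0.41 to 1.19, adjusted p = 0.0689), and without B6 arch replicate 1 it was 0.62 (adjusted p = 0.104, in a range of 0.00969 to 0.383 over its alternatives). The DBA difference was 0.53 ± 0.17 (adjusted p = 0.229).

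Col3a1 had 12.22, 11.43 and 11.72 in B6 and 11.05, 10.84 and 11.06 in 129 arch, a log2 difference of 0.81 ± 0.20 (SE, adjusted p = 0.110). The groups did not overlap, and the mean of B6 replicates 2 and 3 alone was 0.59 above 129. Col4a1 differed by 0.50 ± 0.13 (adjusted p = 0.123) and Col4a5 by 0.88 ± 0.25 (adjusted p = 0.171). The type I genes had smaller differences, at 0.44 (95% interval 0.04 to 0.85) for Col1a1 and 0.39 (0.01 to 0.77) for Col1a2, and their arrays overlapped. Col4a2, Col6a1, Col14a1 and Col18a1, each the brightest probe set of its class, differed by 0.35, 0.45, 0.31 and 0.18.

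Between DBA and 129 arch, 6 of the 44 genes were higher on all DBA arrays, which was so for 10.8% of all genes. The 6 were Col15a1, Col4a1, Col4a4, Col5a3, Col6a3 and Col8a1. Col20a1 alone was lower on all DBA arrays, which was so for 10% of all genes. Col8a1 had 8.00, 7.82 and 8.13 in DBA and 6.58, 7.37 and 7.23 in 129 arch (log2 difference 0.93 ± 0.36, SE, adjusted p = 0.343). In B6 it had 7.95, 6.57 and 6.58, so replicate 1 lay with the DBA arrays and the other B6 arrays with the lowest 129 array. Without B6 arch replicate 1 the difference between DBA and B6 was 1.41 and passed the test (adjusted p = 0.0231, in a range of 0.0155 to 0.992 over its alternatives), whereas with all arrays it was 0.95 (95% interval 0.13 to 1.77, adjusted p = 0.314). Its partner Col8a2 differed by 0.29 between DBA and 129 and by 0.35 between DBA and B6, with adjusted p of 0.666 and 0.563. All 9 arch arrays stayed below the root for both chains.

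Col12a1 was at 7.72, 7.49 and 8.06 in DBA, 6.70, 7.24 and 6.80 in B6 and 6.98, 7.00 and 7.55 in 129 arch. DBA did not overlap with B6 (log2 difference 0.84 ± 0.22, SE, adjusted p = 0.114), but did with 129 (0.58 ± 0.22, adjusted p = 0.315). The highest DBA array lay within the range of the 129 root arrays, and the other DBA arrays below it. Col20a1, a FACIT chain, was the gene with the smallest p between DBA and 129, with 5.78, 5.40 and 5.43 in DBA and 6.13, 5.96 and 5.96 in 129 arch (log2 difference -0.49 ± 0.13, adjusted p = 0.130). In 7 of the 44 genes all DBA arrays lay below all B6 arrays, which was so for 7.28% of all genes. The 7 were Col1a1, Col1a2, Col3a1, Col4a3, Col6a1, Col6a6 and Col19a1. In 2 of the 44, Col12a1 and Col17a1, all DBA arrays lay above all B6 arrays, which was so for 9.82% of all genes. The median difference between DBA and B6 was -0.15 over all 44 genes. Over the 24 brighter genes it was -0.29, and -0.14 without B6 arch replicate 1.

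Of the 9 chains that were higher in the root, Col4a4, Col6a5, Col8a2, Col11a1, Col16a1 and Col23a1 had 95% intervals that covered 0 in all 3 strain comparisons. For Col4a3, Col8a1 and Col12a1 the interval excluded 0 in 2 of the 3, with no adjusted p under the threshold. Col4a3 and Col4a4 were 0.94 and 1.26 higher on B6 arch replicate 1 than on the mean of B6 replicates 2 and 3, and without that array the B6 mean was 0.46 and 0.05 above 129 arch.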

How the data were processed

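Total RNA of pooled aortic tissue from 12 pools of mice was labelled as cDNA and measured on Affymetrix Mouse Gene 2.1 ST arrays. The deposited table gives 1 log2 intensity per transcript cluster (a probe set) and array, normalised by the authors; the submitters' processing notes name Affymetrix Expression Console, and for its version, the summarisation and the genome build the sources used here give nothing. The log2 base was read from the values (0.668 to 13.6). A total of 41345 clusters comprised 23521 with 1 symbol, 1820 with several and 16004 without; only the first were used, and the cluster with the highest mean stood for its gene. Linear models were fitted with lmFit and eBayes of limma 3.58.1 under R 4.3.3 (two-sided, adjusted over 22180 genes), over the 9 arch arrays in a single model, or over the 6 arrays of 129 mice for root and arch. The fit was tested on simulated data. Each array held its own pool, and p-values reflect the spread between pools; 3 arrays per group limit the precision. The root samples' description names the arch, and titles and tissue labels were followed. Genes named were those called, the brightest of each class, partner chains of called genes and up to 4 called genes of each list with the largest differences; other genes were named after their values were seen. The members, gene lists and alternatives were chosen with earlier results of these data known. The alternatives were quantile normalisation, median centring, omission of dim genes, array weights, a robust and trended prior, a single model of all 12 arrays, other ways to treat clusters, the replicate number as a block, a minimum log2 difference of 1, the 6 arrays of a comparison alone, the methods' tests, and omission of arrays. Sequences came from a RefSeq promoter table (GRCm38.p6), in which 35 of 44 genes were found.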

Additional observations from a re-analysis of the deposited data

How the results depend on the processing

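The count of 9 collagen genes higher in the root stayed within 6 to 13 under every alternative but the minimum log2 difference of 1, which left 5, and no gene called changed direction. It ran from 7 to 10 with an array left out. The replicate number as a block left 8 (Col4a3 was lost); same-numbered root and arch arrays had correlations of deviations of 0.04 to 0.05, and same-numbered arch arrays of -0.09 to 0.11, so the numbers are not taken as pairs. Between strains the block left 0, 2 and 0 collagen genes (DBA against 129, B6 against 129, DBA against B6). The labels do not say that a number marks a shared day or litter. The methods' analysis of variance after Benjamini-Hochberg left 6, without Col4a3, Col8a2 and Col12a1. A robust trended prior gave 13 by adding Col4a1, Col4a6, Col5a2 and Col6a6.

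Between strains the count of 0 became 1 for DBA against 129 with all 12 arrays in a single model (Col20a1), and 1 under the methods' Tukey-Kramer test at an unadjusted p. For B6 against 129 it became 1 after median centring or omission of dim genes (Col15a1), 2 with the robust prior or with the block, 3 with all 12 arrays, 5 under the unadjusted Tukey-Kramer test and 6 with array weights. For DBA against B6 it became 1 with all 12 arrays (Col12a1), 1 when B6 arch replicate 1 and DBA arch replicate 2 were both left out (Col8a1), 2 under the unadjusted Tukey-Kramer test and 4 with array weights. With an array left out the counts ran from 0 to 0, 0 to 0 and 0 to 1, the last without B6 arch replicate 1. After Benjamini-Hochberg the Tukey-Kramer test gave 0 throughout. Over all genes the counts of 320, 322 and 344 became 517, 1412 and 1348 with array weights, 568, 595 and 671 with all 12 arrays, 217, 186 and 186 with the block, 183, 192 and 194 with the minimum difference and 73, 57 and 81 under the Tukey-Kramer test after Benjamini-Hochberg, and the 3508 for root and arch became 2212 with all 12 arrays and 1134 with the minimum difference. The cause of these changes was not tested.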
